A study of Homo sapiens with 4 samples.

Results

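Genes of B cell receptor signalling were followed through the cohesin and CTCF contact maps of a human B lymphoblastoid cell line. They were CD79A, CD79B, CD22, CR2, MS4A1, SYK, BLK, BLNK and PLCG2, which makes 9 of the 19970 protein-coding genes considered in GENCODE release 44 (hg38). The genes were chosen by name, with earlier results of these data known. A peak belonged to a gene when its summit lay in the gene body or within 50 kb of the gene's start. A loop belonged to a gene when an anchor, a bin of 5 kb, lay within 5 kb of any annotated transcript start. By these rules the 9 genes held 144 SMC1 peaks, 78 CTCF peaks, 61 loops of the list labelled SMC1 and 104 loops of the list labelled CTCF.

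The study set a cohesin HiChIP with stronger fixation beside a CTCF HiChIP with standard fixation. HiChIP ligates DNA ends that lie close together in the fixed nucleus and then immunoprecipitates the fragments bound by a chosen protein. All 4 samples are labelled HG00731, a lymphoblastoid cell line, that is, B cells made to grow without limit by Epstein-Barr virus. The group SMC1 (2 replicates) targeted a core subunit of the cohesin ring after fixation with formaldehyde and EGS, a longer cross-linker, and the group CTCF (2 replicates) targeted the DNA-binding protein that halts cohesin after fixation with formaldehyde alone. Target and fixation therefore cannot be told apart. The growth protocol in the same labels names HG00721, while the study's methods name HG00731. The line comes from a single donor, no treatment is given for it, and no input sample was used here.

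The deposited lists pool both replicates of each target and give no value for a single replicate, so no difference could be tested against the spread between replicates. Intervals are 95% intervals and cover counting error only. They are Wilson intervals for shares, exact Poisson intervals for ratios of observed to expected read pairs, and rank intervals for medians. Read pairs were counted without molecular identifiers. Adjacent bins can report the same contact, so neighbouring loops of a gene are not independent.

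The labels of the loop lists need care. The list labelled SMC1 held 28012 loops, of which 0 lacked a CTCF peak at both anchors and 11 lacked an SMC1 peak at both. The list labelled CTCF held 80487 loops, of which 0 lacked an SMC1 peak at both anchors and 3745 lacked a CTCF peak at both. The loop caller keeps bin pairs with a peak in at least 1 anchor. The loop totals that the study's text gives per target are those of these lists with the labels exchanged. The list labelled CTCF therefore probably holds the loops of the SMC1 experiment, and the list labelled SMC1 those of the CTCF experiment. Loops are named by the deposited label of their list throughout, and a gene without a loop labelled SMC1 is not thereby a gene without cohesin loops.

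As a check of the cell type, SMC1 summits lay within 1 kb of a start in 12 of 12 B cell marker genes, among them PAX5 and EBF1, against 62.6% of all coding genes. They did so in 2 of 8 T cell markers (CD4 and CD8A), 3 of 4 myeloid markers and 1 of 3 liver markers, so the myeloid count is not below the share of all genes. Peaks do not measure expression, and which of these genes were transcribed was not tested.

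The B cell receptor is a membrane immunoglobulin paired with CD79A and CD79B, the signalling chains that carry activation motifs in their tails. When antigen binds, SRC-family kinases such as LYN and BLK phosphorylate these motifs, which recruit the kinase SYK. SYK phosphorylates the adaptor BLNK, and BLNK brings in PLCG2, the phospholipase whose products release calcium and activate protein kinase C. CD22 recruits phosphatases that dampen the signal, CR2 (CD21) binds complement fragments and acts as a coreceptor, and MS4A1 encodes CD20, a surface protein with a role in calcium entry. Cohesin extrudes DNA into loops and tends to stop at CTCF bound to sites that point into the loop, and it also gathers at active starts and enhancers.

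The sequences shown first are CTCF sites at the far anchors of these genes' loops, that is, the anchors away from the gene's own start, because their direction is compared below. Sites were scored with a weight matrix of 20 bases built from the CTCF peaks of this series. A site was called above 6.10 bits, a score reached by 5% of control windows shifted by 3 kb. Each sequence is hg38 read 5′ to 3′ on the strand of the site, with the 20 matched bases in capitals. A site on the plus strand points to higher coordinates. The positions are chr19:41951794-41951853 (minus strand) for CD79A, chr17:63946917-63946976 (minus strand) for CD79B, chr19:35468874-35468933 (minus strand) for CD22, chr1:207499665-207499724 (minus strand) for CR2, chr11:60363623-60363682 (plus strand) for MS4A1, chr10:96229688-96229747 (plus strand) for BLNK and chr16:81874035-81874094 (minus strand) for PLCG2. The sites of CD79B, CR2, MS4A1, BLNK and PLCG2 lay in introns of SCN4A, CR1, MS4A6E, BLNK and PLCG2, and those of CD79A and CD22 between coding genes.
CD79A far site: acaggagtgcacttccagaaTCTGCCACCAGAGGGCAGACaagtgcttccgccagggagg
CD79B far site: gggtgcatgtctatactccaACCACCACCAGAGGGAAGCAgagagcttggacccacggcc
CD22 far site: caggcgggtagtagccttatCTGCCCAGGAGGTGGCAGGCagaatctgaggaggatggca
CR2 far site: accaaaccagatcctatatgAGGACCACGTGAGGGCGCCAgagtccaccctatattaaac
MS4A1 far site: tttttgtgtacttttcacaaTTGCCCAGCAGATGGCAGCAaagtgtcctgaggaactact
BLNK intron site: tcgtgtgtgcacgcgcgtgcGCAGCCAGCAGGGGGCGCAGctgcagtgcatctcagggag
PLCG2 intron site: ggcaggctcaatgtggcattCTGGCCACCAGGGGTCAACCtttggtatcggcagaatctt

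Each of these sites pointed towards the start of the gene that looped to it. The MS4A1 site scored 22.6 bits, the CD79A site 21.6, the BLNK site 20.6, the CD22 site 17.8, the CD79B site 11.8, the PLCG2 site 11.4 and the CR2 site 9.17. Over all 9 genes, 41 loops labelled CTCF joined a start anchor without a site to a far anchor with a site on 1 strand, and in 40 of them the site pointed to the gene. In the list labelled SMC1 this held for 27 of 29 loops. Over all such loops from coding starts the share was 87.8% for those labelled CTCF and 83.6% for those labelled SMC1.

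The loops shared far anchors. A site was counted for a bin when the CTCF peak that holds it overlapped the bin, so in a few cases the site itself lay just outside, as for the bins chr19:35270001-35275000 of CD22, chr10:96230001-96235000 of BLNK and chr16:82225001-82230000 of PLCG2. The CD22 site is the one counted for the neighbouring bin as well. The 41 loops labelled CTCF ended in 16 far bins over 8 genes, 15 of them with a site that pointed to the gene. The 29 loops labelled SMC1 ended in 12 far bins over 6 genes, 10 of them with such a site. The exceptions were a bin upstream of PLCG2 in both lists and a bin in DMKN reached by CD22 in the list labelled SMC1. Their sites, at chr16:81738152-81738211 (minus strand) between coding genes and at chr19:35510530-35510589 (plus strand) in a DMKN intron, are shown because they pointed away from the gene.
PLCG2 upstream site: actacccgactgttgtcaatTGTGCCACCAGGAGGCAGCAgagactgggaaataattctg
CD22 to DMKN site: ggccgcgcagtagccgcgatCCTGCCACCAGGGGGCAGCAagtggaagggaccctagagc

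The site upstream of PLCG2 scored 19.6 bits and the DMKN site 23.7 bits, so the exceptions were not among the weakest sites. Among the 104 loops labelled CTCF, 3 loops, all of BLK, joined sites that faced each other, against 11.2% of all loops at coding starts in that list. The 61 loops labelled SMC1 held 2 such loops, 1 of BLK and 1 of CD22, against 13.9%. In addition, 1 loop of PLCG2 labelled SMC1 joined sites that faced apart, against 0.591%.

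Cohesin peaks were found at the starts of all 9 genes, and CTCF peaks at the starts of 5. An SMC1 summit lay within 1 kb of an annotated start in 9 of 9 genes, against 62.6% of all coding genes. A CTCF summit did so in 5 of 9 (CD79B, CD22, CR2, BLK and PLCG2), against 46.7%. At the canonical start alone, the transcript the annotation marks as representative, an SMC1 summit was found in 8 of 9 genes against 53.3%, with BLK as the exception, and CTCF in 4 of 9 against 35.5%. In 5 of the 9 genes (CD79A, MS4A1, SYK, BLK and BLNK) no SMC1 peak with its summit within 1 kb of a start overlapped a CTCF peak, against 19.4% of coding genes. For BLK this rests on the summit, because a broad SMC1 peak that overlaps CTCF covers its canonical start. At least 1 SMC1 peak without CTCF lay at a start of 7 genes, against 33.7%. Both background shares include coding genes without any SMC1 summit at a start, which none of the 9 genes is. Of the 12500 coding genes with such a summit, 3884 had only SMC1 peaks without CTCF there. At least 1 such peak was found in 6735 of the 12500. PLCG2 and CD22 have 25 and 16 annotated starts, so they had more positions at which a peak could count than CD79A with 3.

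The peaks at the starts ranged widely in strength. Strength is given as −log10 of the q-value of the peak caller. The strongest SMC1 peak at a start reached 83.6 at PLCG2, 73.7 at CD79B, 66.5 at BLK, 53.4 at CD79A and 38.4 at CR2. It was 29.1 at SYK, 19.5 at BLNK, 17.7 at CD22 and 11.1 at MS4A1. The median over all coding genes with such a peak was 32.9, so 5 of the 9 genes lay above it. For CTCF the values were 131 at PLCG2, 64.1 at CR2, 46.5 at CD22, 16.8 at BLK and 6.99 at CD79B, around a median of 28.8 over all coding genes.

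**Figure D1:**
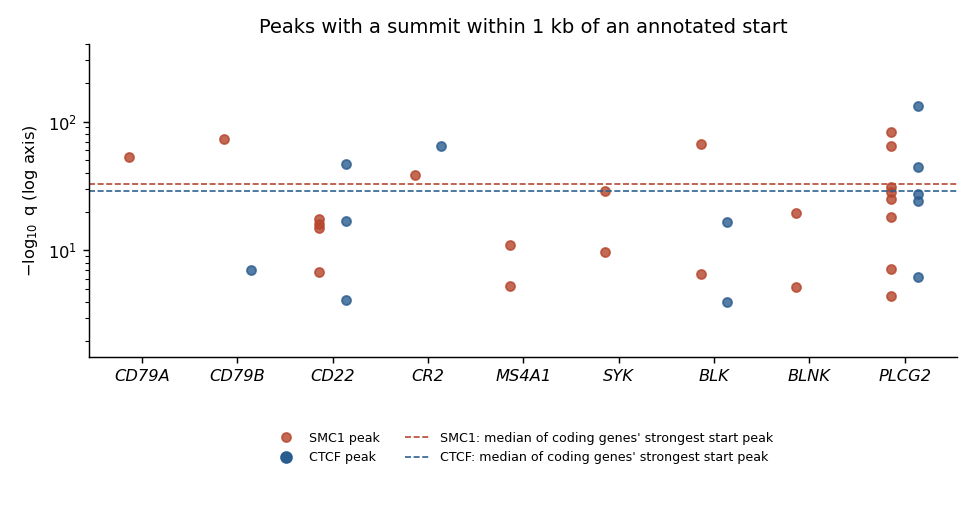
Each point is a peak with its summit within 1 kb of a start of the gene, as −log10 q on a log axis, SMC1 in red and CTCF in blue, and the dashed lines are the medians of the strongest start peak over all coding genes. SMC1 has points for all 9 genes and CTCF for 5, and PLCG2 has the highest point of both targets (83.6 and 131).

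Across the wider windows, all 9 genes had more SMC1 peaks within 50 kb of the start than the median coding gene. The median was 11 peaks (8 to 18) against 6 over all coding genes. For CTCF it was 8 peaks (3 to 10) against 4, and 6 of the 9 genes lay above the median of all coding genes. With gene bodies included, counts ran from 8 SMC1 peaks at MS4A1 and 3 CTCF peaks at CR2 to 30 and 19 at PLCG2, whose long body held 22 and 14 of them.

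Of the 144 SMC1 peaks, 64 overlapped a CTCF peak, a share of 44.4% (36.6 to 52.6) against 47.1% of all SMC1 peaks. Of the 78 CTCF peaks, 67 overlapped an SMC1 peak, a share of 85.9% (76.5 to 91.9) against 75.9%. SMC1 peaks that overlapped CTCF had a median −log10 q of 47.6 and a median width of 1002.5 bases, while those without CTCF had medians of 9.40 and 518.5 bases. At CD79B 10 of 11 SMC1 peaks overlapped CTCF, whereas at BLNK 3 of 13 did and at CR2 3 of 11.

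**Figure D2:**
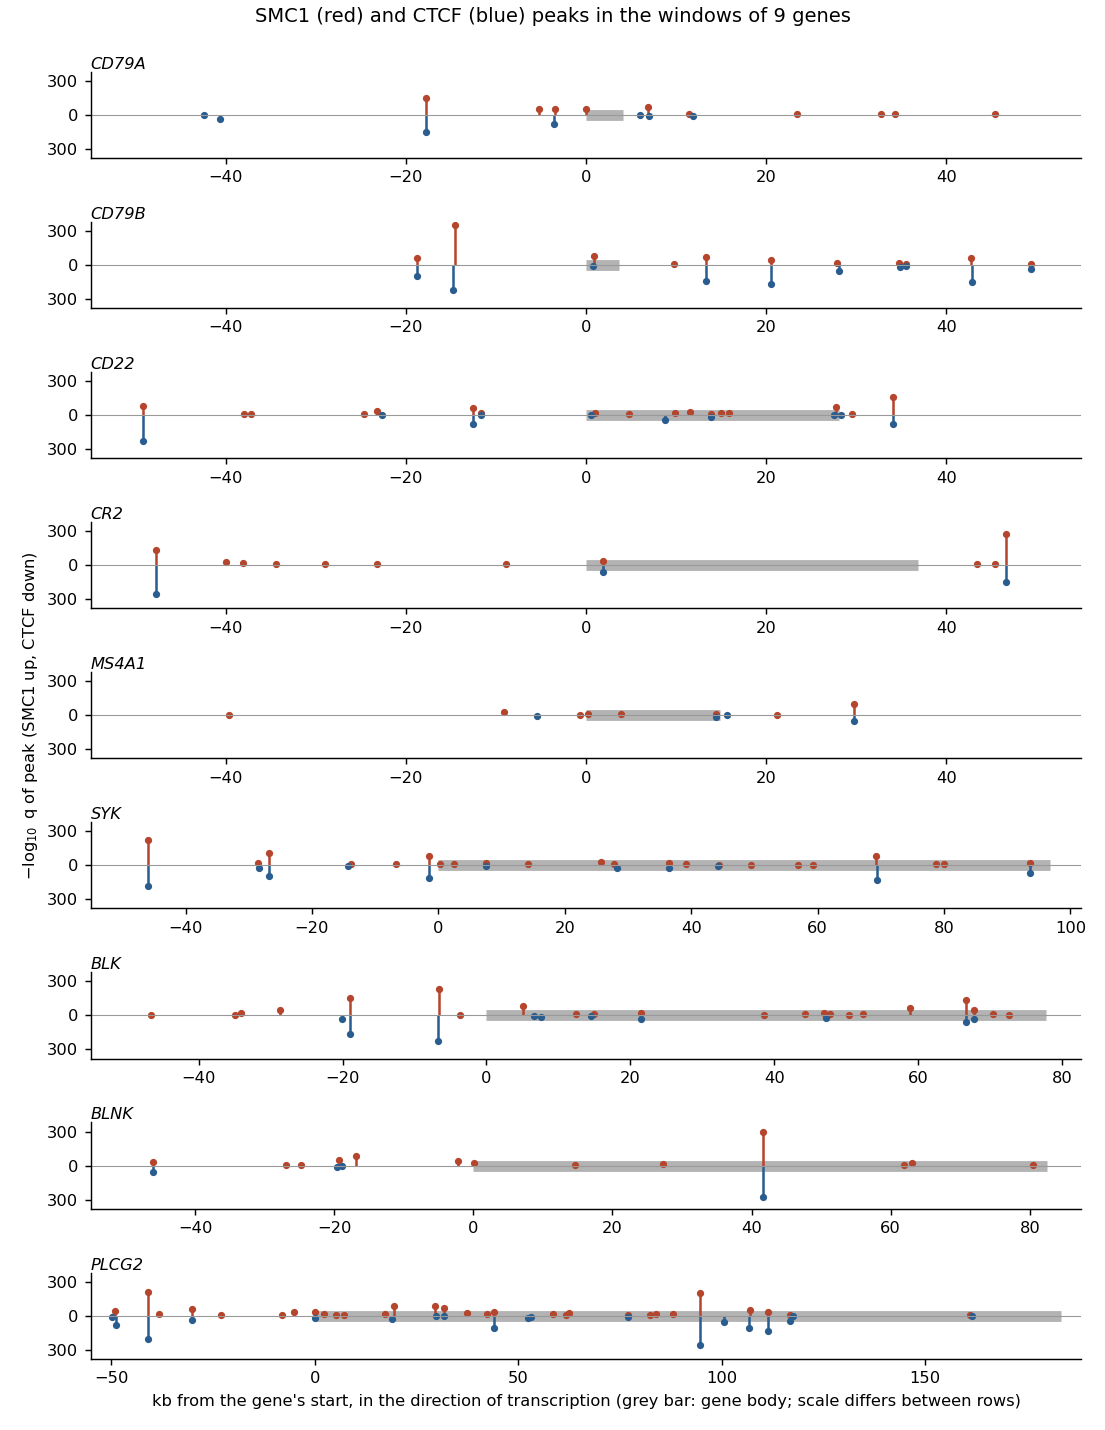
SMC1 peaks (red, upwards) and CTCF peaks (blue, downwards) of each gene by distance in kb from the gene's start in the direction of transcription, with −log10 q as the height and the gene body as a grey bar. The tallest SMC1 peak is the one upstream of CD79B (350.7), and the tallest CTCF peak lies in the BLNK intron beside an SMC1 peak (276.6 and 299.7).

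All 9 genes had a loop labelled CTCF at a start, against 59% of coding genes, and 7 of 9 had a loop labelled SMC1, against 35.1%. MS4A1 and CR2 had none in the list labelled SMC1, so 7 of 9 had a loop in both lists, against 33.5%. At the canonical start alone, a loop labelled CTCF was found for 8 genes, against 50.5%, and a loop labelled SMC1 for 6, against 27.8%. In the list labelled CTCF, 5 genes had 10 or more loops (CD22, CD79A, MS4A1, BLK and PLCG2), against 15% of coding genes. The same held in the list labelled SMC1 for 3 genes (CD22, BLK and PLCG2), against 5%. With the start inside the anchor, only CD22 (10 labelled CTCF) and PLCG2 (13 labelled SMC1) reached 10 loops. At the canonical start alone, only CD79A (17 labelled CTCF) did.

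The loops of these genes were shorter and weaker relative to expectation than those of the whole lists. Strength is the ratio of observed read pairs to the read pairs the caller expected at that distance and depth. Its median was 3.14 (2.93 to 3.57) over the 61 loops labelled SMC1, against 4.0 over all loops of that list, and 2.77 (2.53 to 3.25) over the 104 loops labelled CTCF, against 4.03. The ratio exceeded 3 in 59.0% of the genes' loops labelled SMC1 against 76.9% of all, and in 43.3% of those labelled CTCF against 74.7%. Median spans were 70 kb and 80 kb, against 130 kb and 125 kb. The other loops of the lists need not lie at a gene start, so the comparison describes starts as well as these genes.

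**Figure D3:**
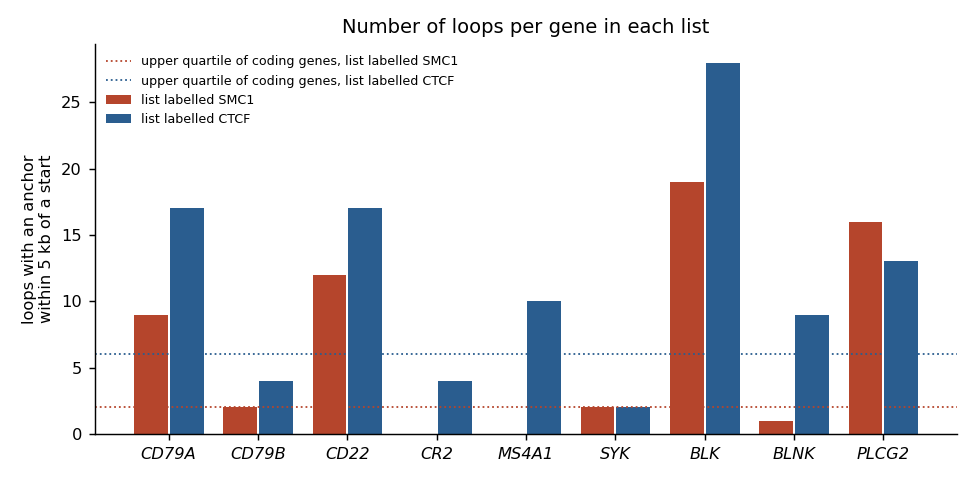
Number of loops at the starts of each gene (bars) in the list labelled SMC1 (red) and the list labelled CTCF (blue), with the upper quartiles over all coding genes, 2 and 6 loops, as dotted lines. BLK has the most in both (19 and 28), and MS4A1 and CR2 have loops only in the list labelled CTCF (10 and 4).

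CD79A, the first of the signalling chains (chr19:41877279-41881372, plus strand), had peaks on both sides and loops on 1 side only. An SMC1 summit lay 28 bp before its start with a −log10 q of 53.4 and no CTCF overlap. No peak of either target had its summit in the gene body. The strongest peaks lay 17.8 kb upstream, at 149 for SMC1 and 157 for CTCF. All of its loops, 9 labelled SMC1 and 17 labelled CTCF, ran downstream, over 50 to 85 kb. The one with most read pairs joined chr19:41870001-41875000 to chr19:41950001-41955000, next to RABAC1, a gene of vesicle transport, and this far bin holds the site printed above. It had 66 read pairs in the list labelled SMC1, a ratio of 3.83 (2.96 to 4.87), and 126 in the list labelled CTCF, a ratio of 5.35 (4.46 to 6.37). The longest loop, 85 kb in both lists, had 31 read pairs labelled SMC1 and 46 labelled CTCF. In each list 6 of its loops reached a start of RABAC1. The neighbour ARHGEF1, a guanine nucleotide exchange factor, has starts near both ends of these loops. Of the start bins of CD79A, chr19:41875001-41880000 and chr19:41880001-41885000 also lie within 5 kb of a start of ARHGEF1, and they anchored 3 and 3 loops labelled SMC1 and 5 and 4 labelled CTCF, which are loops of both genes by the rule used. Far bins at other starts of ARHGEF1 were reached by 2 loops labelled SMC1 and 4 labelled CTCF.

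CD79B, the second chain (chr17:63928738-63932336, minus strand), had the strongest SMC1 peak of the whole set, but not at its start. That peak, at chr17 position 63946881 in an intron of SCN4A (a muscle sodium channel), lay 14.5 kb upstream with a −log10 q of 350.7, and a CTCF peak beside it reached 221. At the CD79B start itself SMC1 reached 73.7 and CTCF 6.99. All start bins of CD79B also lie at a start of ENSG00000285947, a coding gene that overlaps it on the same strand, so its loops are loops of both by the rule used. The short loop from the start bin at chr17:63930001-63935000 to the SCN4A bin spanned 15 kb. It had 59 read pairs labelled SMC1, a ratio of 2.14 (1.63 to 2.77), and 156 labelled CTCF, a ratio of 2.03 (1.72 to 2.37). A longer loop of 95 kb to ICAM2, an adhesion molecule, was found only in the list labelled SMC1, with 29 read pairs and a ratio of 3.57 (2.39 to 5.12). The longest labelled CTCF, 20 kb to SCN4A, had 115 read pairs and a ratio of 2.59 (2.14 to 3.11). A loop of 10 kb to GH1 had 73 read pairs in the list labelled CTCF. The growth hormone genes around GH1 are near-identical copies, so the placement of reads there is uncertain.

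CD22, the inhibitory receptor (chr19:35319261-35347361, plus strand), had loops to both sides. An SMC1 peak lay 75 bp before its canonical start, with a −log10 q of 15.9 and no CTCF overlap. The CTCF peak nearest to a start lay 478 bp away, with a −log10 q of 4.10. The strongest peaks lay outside the gene, with SMC1 at 155 in an exon of FFAR1 and CTCF at 231 in an exon of USF2. Of 12 loops labelled SMC1, 5 ran upstream and 7 downstream, and of 17 labelled CTCF, 4 ran upstream and 13 downstream. Its top loop joined chr19:35345001-35350000 to chr19:35465001-35470000 over 120 kb. It had 64 read pairs and a ratio of 9.69 (7.47 to 12.4) in the list labelled SMC1, against 130 read pairs and a ratio of 3.49 (2.92 to 4.15) in the list labelled CTCF. The intervals of the ratios do not overlap, although the ratios rest on expected values that were fitted separately per list. The far bin holds a CTCF peak with a −log10 q of 450.0. The near bin lies at the 3′ end of CD22, within 5 kb of a start of FFAR1, a fatty acid receptor, as well as of CD22, and it anchored 5 of the 12 loops labelled SMC1 and 7 of the 17 labelled CTCF. By the rule used these are loops of both genes. The bin chr19:35340001-35345000, also at a start of FFAR1, anchored 1 further loop labelled SMC1. The bin chr19:35315001-35320000, also at a start of MAG, anchored 1 loop in each list. Upstream loops reached USF2, a transcription factor, and LSR, a lipoprotein receptor, in 4 loops each labelled CTCF. The longest loop labelled SMC1, 165 kb, was the one to DMKN, with 15 read pairs and a ratio of 3.75 (2.10 to 6.19). The longest labelled CTCF were 2 loops of 150 kb, with 20 and 22 read pairs.

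CR2, the complement receptor (chr1:207453024-207489895, plus strand), had few CTCF peaks but strong ones. The 3 CTCF peaks reached −log10 q of 259.8 at 47.7 kb upstream, 149.7 in an intron of CR1 and 64.1 at the start. The SMC1 peak in the CR1 intron reached 271 and the one at the start 38.4. The 4 loops of CR2, all labelled CTCF, ended in the bin chr1:207495001-207500000 in CR1, the neighbouring complement receptor, over 35 to 50 kb. The top one had 49 read pairs and a ratio of 2.87 (2.13 to 3.8), and the longest had 24 read pairs. CR2 and CR1 are related genes made of repeats, and how this affected read placement was not tested.

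MS4A1, the CD20 gene (chr11:60455846-60470752, plus strand), had the lowest value of the 9 genes for the strongest SMC1 peak at a start and no loop labelled SMC1. SMC1 reached 11.1 and 5.33 at its starts, with no CTCF there, and its strongest peaks lay 29.7 kb downstream of the start, at 102 for SMC1 and 50.2 for CTCF. All 10 of its loops labelled CTCF ran upstream, over 80 to 110 kb, into the cluster of related MS4A genes, the longest with 17 read pairs. The most read pairs, 48, were shared by the loops from chr11:60365001-60370000 to chr11:60455001-60460000, with a ratio of 5.10 (3.76 to 6.76), and from chr11:60360001-60365000 to chr11:60460001-60465000, with a ratio of 4.79 (3.53 to 6.35). The bin chr11:60360001-60365000 holds the MS4A6E site printed above, and the other bin lies next to it. Starts of MS4A7 and MS4A14 were reached by 2 loops. The median ratio of its loops, 3.92, was the highest of the 9 genes in the list labelled CTCF.

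BLK, the SRC-family kinase (chr8:11486894-11564599, plus strand), had the most loops of the 9 genes in both lists. Its 19 loops labelled SMC1 were more than those of 98.6% of coding genes and its 28 labelled CTCF more than those of 98.4%. In each list 9 of them joined bins at 2 of its own starts. The rank of BLK depended on the rule for starts. At the canonical start alone BLK had 5 loops labelled SMC1 and 6 labelled CTCF, against 9 and 17 for CD79A. With a start inside the anchor BLK had 7 and 8, against 13 labelled SMC1 for PLCG2 and 10 labelled CTCF for CD22. SMC1 reached 66.5 at an internal start, without CTCF. At the canonical start, 11494387, no SMC1 summit lay within 1 kb, but a broad SMC1 peak (chr8:11491880-11495094) with a −log10 q of 81.1 and its summit further upstream covered the start and overlapped CTCF, which reached 16.8 there. The strongest peaks lay 6.6 kb upstream of the start, at 231 for SMC1 and 225 for CTCF.

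The loop of BLK with most read pairs in the list labelled CTCF joined chr8:11490001-11495000 to chr8:11530001-11535000, with 207 read pairs and a ratio of 3.25 (2.82 to 3.73). Among its loops labelled SMC1 it was a loop of 10 kb from chr8:11480001-11485000, with 89 read pairs and a ratio of 2.58 (2.07 to 3.17). The highest ratio, 10.2 (7.92 to 13) from 67 read pairs, belonged to a loop of 180 kb labelled CTCF that ended in GATA4, which encodes a transcription factor. Its near anchor, chr8:11565001-11570000, lies just beyond the 3′ end of BLK, within 5 kb of an internal start, and it also anchors the longest loop of each list. Those spanned 395 kb labelled CTCF (15 read pairs) and 390 kb labelled SMC1 (21 read pairs). Many loops of BLK are also loops of its neighbour FAM167A by the rule used. The bin chr8:11480001-11485000 lies within 5 kb of starts of both genes and anchored 12 loops labelled CTCF and 11 labelled SMC1. A far bin at a start of FAM167A alone was reached by 2 further loops labelled CTCF and 1 labelled SMC1.

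SYK, the kinase that binds the phosphorylated chains (chr9:90801787-90898549, plus strand), had 22 SMC1 and 11 CTCF peaks, and 2 loops in each list. The median coding gene had 0 loops labelled SMC1 and 1 labelled CTCF. The medians of the 9 genes were 2 and 10. SMC1 reached 29.1 at an internal start and 9.77 at the first one, both without CTCF. A stronger pair that overlapped, SMC1 at 78.6 and CTCF at 115, lay 1546 bp and 1472 bp before the first start, outside the limit of 1 kb, and a limit of 2 kb would count CTCF at a start in 6 genes in place of 5. The strongest peaks lay 45.9 kb upstream, at 226 for SMC1 and 181 for CTCF. The loops labelled SMC1 ran upstream over 55 kb, from bins at the internal start to bins before the gene. The top one had 16 read pairs and a ratio of 3.67 (2.10 to 5.95). In neither list did SYK have a loop at its canonical start. The loops labelled CTCF ran from the internal start back into the gene body over 15 and 20 kb, the top one with 46 read pairs and a ratio of 2.25 (1.65 to 3.01) and the longer one with 30 read pairs. No loop of SYK was found in the same bins in both lists.

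BLNK, the adaptor (chr10:96189171-96271587, minus strand), showed SMC1 without CTCF at its start and a strong shared peak in an intron. The start peak lay 13 bp from the canonical start with a −log10 q of 19.5. The intron peak, 41.6 kb into the gene, reached 299.7 for SMC1 and 276.6 for CTCF and carries the site printed above. The single loop labelled SMC1 joined chr10:96230001-96235000, next to that peak's site, to chr10:96265001-96270000, with 19 read pairs and a ratio of 3.62 (2.18 to 5.66). The list labelled CTCF held the same loop among 9. Its top loop ran 15 kb upstream with 162 read pairs and a ratio of 2.28 (1.94 to 2.66), and its longest, 190 kb, had 29 read pairs and a ratio of 5.87. A loop to CCNJ, a cyclin gene, had 14 read pairs and a ratio of 4.87 (2.66 to 8.17).

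PLCG2, the phospholipase (chr16:81779279-81962685, plus strand), is the longest of the 9 genes and had peaks at many of its starts. SMC1 had 8 peaks and CTCF 5 within 1 kb of a start. At the canonical start both were found within 30 bp, with SMC1 at 31.0 and CTCF at 24. The CTCF peak nearest to any start, 11 bp from an internal one, reached 6.22. The strongest peaks lay 40.9 kb upstream, at 213 for SMC1 and 206 for CTCF, and in an intron 94.6 kb into the gene for CTCF, at 255, with SMC1 beside it at 198. The upstream pair lies 638 bp (SMC1) and 630 bp (CTCF) from a PLCG2 start in the RefSeq annotation that is 40238 bp from the nearest start in GENCODE, so it was not counted as a start peak here. The upstream bin that holds it was the far anchor whose site pointed away from the gene, reached by loops of 24 and 23 read pairs labelled SMC1 and by one of 15 labelled CTCF.

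PLCG2 was the only 1 of the 9 genes with more loops labelled SMC1 (16) than labelled CTCF (13). Its top loop labelled SMC1 joined chr16:81795001-81800000 to chr16:81820001-81825000, with 40 read pairs and a ratio of 3.02 (2.16 to 4.12). Its top loop labelled CTCF joined chr16:81825001-81830000 to the bin of the intron site, chr16:81870001-81875000, with 100 read pairs and a ratio of 2.35 (1.91 to 2.85). The same bins had 36 read pairs in the list labelled SMC1. Bins at 2 of its own starts were joined by 5 loops labelled SMC1 and 2 labelled CTCF. Of the other 11 loops in each list, 8 labelled SMC1 and 7 labelled CTCF had their far anchor in the gene body. The longest labelled SMC1, 150 kb, joined the upstream bin to chr16:81885001-81890000, with 23 read pairs and a ratio of 2.52 (1.60 to 3.78). The longest labelled CTCF, 285 kb downstream, had 13 read pairs and a ratio of 8.33 (4.43 to 14.2).

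**Figure D4:**
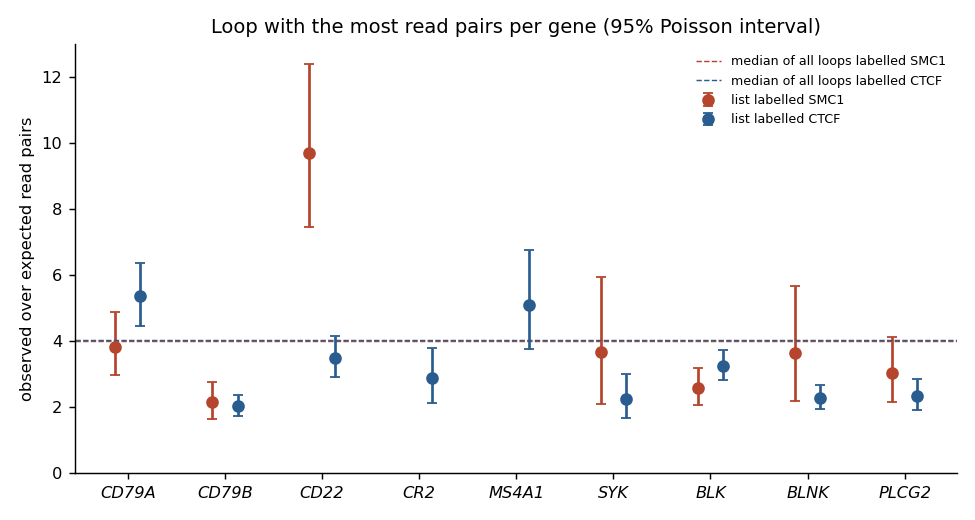
Ratio of observed to expected read pairs for the loop with most read pairs of each gene in each list (points) with exact Poisson 95% intervals (bars), and the medians of all loops as dashed lines. The ratio for CD22 in the list labelled SMC1 (9.69) is the highest, and MS4A1 and CR2 have a value only in the list labelled CTCF.

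**Figure D5:**
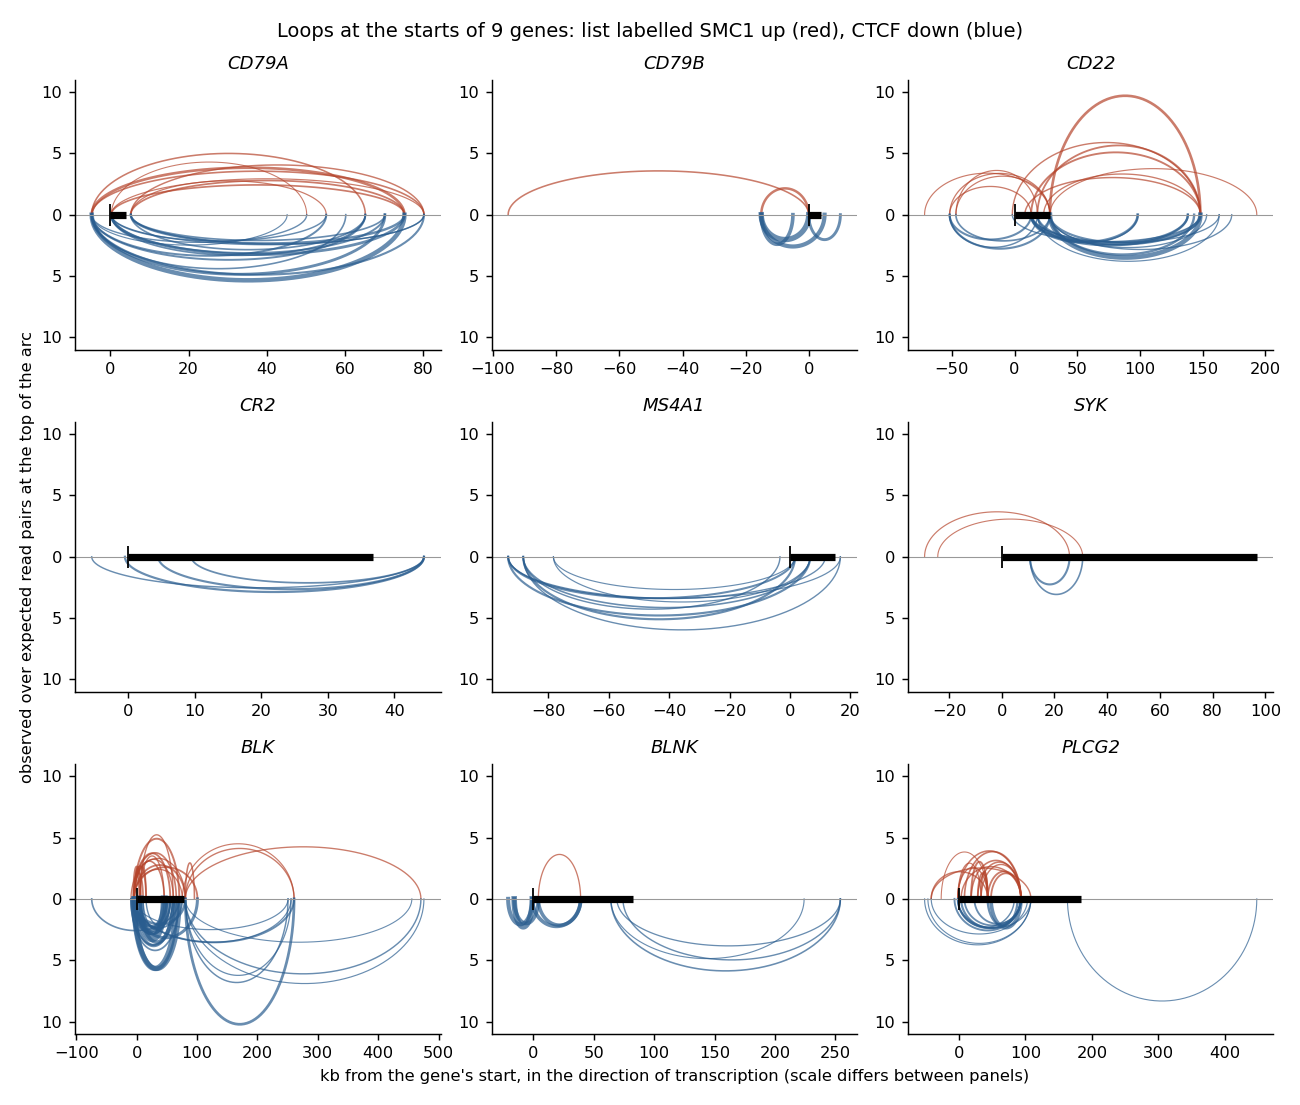
Loops of each gene drawn as arcs between the middles of their anchors, by distance in kb from the gene's start in the direction of transcription, with the observed over expected ratio as the height (list labelled SMC1 upwards in red, CTCF downwards in blue). The black bar is the gene body. The loops of CD79A and CR2 run downstream, those of MS4A1 upstream, and those of BLK and CD22 to both sides.

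The same bin pair was called in both lists for 32 loops, which is 32 of 61 labelled SMC1 and 32 of 104 labelled CTCF. Over all loops at coding starts the shares were 68.1% and 25.8%. BLK held 12 of them, CD22 and CD79A 7 each, PLCG2 4, and CD79B and BLNK 1 each. Read pairs were higher in the list labelled CTCF in 30 of the 32, with a median ratio between lists of 2.05 (range 0.92 to 9.86). Summed over all loops, read pairs differed by 3.38 times, but the lists also differ in size, with 80487 and 28012 loops. The median loop had 23 read pairs in the list labelled CTCF and 21 in the list labelled SMC1. Depth was therefore not compared by the sum. The observed over expected ratio was lower in the list labelled CTCF in 22 of the 32, with a median ratio between lists of 0.846.

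Peaks of these genes often lay in loop anchors. Of their SMC1 peaks, 72 of 144 lay in an anchor labelled SMC1, against 22% of all SMC1 peaks, and 103 in an anchor labelled CTCF, against 51.2%. Of their CTCF peaks, 49 of 78 lay in an anchor labelled SMC1, against 28%, and 57 in an anchor labelled CTCF, against 55.3%. Anchors of any loop were counted, not only those at the genes' own starts.

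Of the 78 CTCF peaks, 20 held a site of the matrix, a share of 25.6% (17.3 to 36.3) against 36.5% of all CTCF peaks. The peaks with a site had a median −log10 q of 152 and those without one 16.6. Among the 20 peaks above a −log10 q of 100, 14 held a site, while 76.3% of all peaks above that strength did. The matrix was built from peaks of at least that strength, so a link between holding a site and strength is partly built in. The fixed letters of the CTCF core (CCA, any 2 bases, AG, any 2 bases, GGC), searched on both strands within 100 bp of the summit, were found in 4 of the 78 peaks, a share of 5.13% (2.01 to 12.5) against 7.57% of all CTCF peaks and 0.851% of windows 1 kb away.

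RefSeq promoter sequence (GRCh38.p14, the 250 bases before a start) was matched for CR2, SYK, BLNK, PLCG2, CD22 and CD79A, with 3 windows for SYK. CD79B, MS4A1 and BLK had no entry. The windows of CD79A (chr19:41877029-41877278 (plus strand)) and BLNK (chr10:96271570-96271819 (minus strand)) are shown on the gene's strand because an SMC1 peak without CTCF lay within 28 bp of those starts.
CD79A promoter: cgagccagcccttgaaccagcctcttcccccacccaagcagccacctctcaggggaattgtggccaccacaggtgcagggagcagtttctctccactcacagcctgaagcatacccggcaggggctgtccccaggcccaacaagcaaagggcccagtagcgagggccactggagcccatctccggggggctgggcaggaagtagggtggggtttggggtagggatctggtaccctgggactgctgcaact
BLNK promoter: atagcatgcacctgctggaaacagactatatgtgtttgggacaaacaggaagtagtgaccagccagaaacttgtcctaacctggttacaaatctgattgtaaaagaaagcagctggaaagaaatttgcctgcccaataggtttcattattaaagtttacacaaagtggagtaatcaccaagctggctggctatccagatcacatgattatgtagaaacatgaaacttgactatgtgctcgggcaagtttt

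The letters GGGCGG, the GC box, were found on either strand in the CR2 window, in 1 of the SYK windows (3 matches) and in the PLCG2 window (which lies at the RefSeq start 40238 bp from the nearest GENCODE start, not at the starts used above), against 42.6% of all RefSeq windows of that length. The letters TATAAA (10.7% of all windows), TCCC and GGGA parted by any 2 bases (1.06%), ATGCAAAT (1.63%), CCGGAAG (8.52%) and the CTCF core letters (2.02%) were found in none of the 8 windows on either strand. These matches describe letters only.

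Other genes of the same pathway were counted by the same rules. Of 32 further genes, 27 had an SMC1 summit at a start, against 62.6% of coding genes, and 24 a CTCF summit, against 46.7%. At the canonical start alone, 24 had an SMC1 summit, against 53.3%, and 14 a CTCF summit, against 35.5%. At least 1 SMC1 peak without CTCF lay at a start of 23 of the 32 and of 7 of the 12 B cell markers, against 33.7%. Genes in which every SMC1 peak at a start lacked CTCF numbered 7 of the 32 and 1 of the 12, against 19.4%. Among genes with an SMC1 summit at a start, the latter counts were 7 of 27 and 1 of 12, against 3884 of 12500 coding genes. On the same base, at least 1 such peak was found in 23 of 27 and 7 of 12, against 6735 of 12500. Loops labelled SMC1 were found for 21, against 35.1%, and loops labelled CTCF for 29, against 59%. BANK1, an adaptor, and the inhibitory receptors FCGR2B and LILRB1 had a loop in neither list. GRB2, an adaptor towards RAS, had the most in both lists (20 and 37). It was followed in the list labelled SMC1 by PTPN6, a phosphatase that CD22 recruits, with 16 and the exchange factor VAV2 with 12. Among loops labelled CTCF it was followed by PRKCB, a protein kinase C, with 29 and the SRC-family kinase FYN with 28.

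T cell receptor counterparts were set beside them as genes of the same roles in another cell type. Of 12 genes, 7 had an SMC1 summit and 6 a CTCF summit at any start, against 62.6% and 46.7% of coding genes. At the canonical start it was 2 and 2, against 53.3% and 35.5%, where the B cell genes had 8 of 9 and 4 of 9. CD3D, CD3E, CD3G, LAT and ZAP70 had no SMC1 summit at a start. Loops were nonetheless found for 9 genes (labelled SMC1) and 11 genes (labelled CTCF), against 35.1% and 59%, with LAT in neither. With the start required inside the anchor, the 9 genes labelled SMC1 fell to 4. CD3D and CD3G each had 2 loops labelled SMC1 and 6 labelled CTCF, and CD3E had 2 and 7. Whether these are the same loops was not tested, so these genes may not be separate observations. PLCG1, the relative of PLCG2 that T cells use and that many other cells express, had 13 and 35 loops, against 16 and 13 for PLCG2. CD247, the zeta chain of the receptor, had 7 and 21, and the adaptor LCP2 had 4 and 20. LCK also had 4 labelled SMC1.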

How the data were processed

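HiChIP was carried out on 4 samples, 2 replicates for SMC1 and 2 for CTCF. As the study's methods and processing notes describe, alignment by the authors used BWA-MEM 0.7.17 and the hg38 build, followed by removal of poorly mapped and duplicate pairs. Peaks were called with MACS3 3.0.1 without an input sample and loops with MAPS in bins of 5 kb, after the replicates were pooled. The authors' peak lists give the fold enrichment as a ratio, p- and q-values as −log10, and a display score that was not used. Each loop deposited by the authors carries its count of read pairs, an expected count and a false discovery rate (a q-value). The study's own text gives the larger loop list to SMC1, while the deposited labels give it to CTCF, so the labels are probably exchanged. They were kept as deposited here.

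Peaks and loops were assigned to GENCODE release 44 starts with Python 3.11.15, pandas 2.3.3 and NumPy 2.4.6. Intervals were computed with SciPy 1.17.1, sequences read with pysam 0.24.0 and figures drawn with Matplotlib 3.10.9. The assignment was tested on simulated data (200 of 200 genes and 100 of 100 planted motifs recovered). The members and lists were chosen with earlier results of these data known. By the rule for named features, the text gives the strongest peak of each gene and target. It also gives the peak nearest to a start if within 1 kb. For each list it gives the loop with most read pairs and the longest loop. Of the pathway and T cell receptor genes it gives the 3 with most loops and those without a loop in either list. Other features named were chosen after their values were seen, as was the CTCF matrix, which was built from 2112 sites when the fixed letters proved rare. The total number of sequenced reads per sample was not used here, and precision was taken from the read pairs of each loop.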

Additional observations from a re-analysis of the deposited data

How the results depend on the processing

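No paired analysis was possible because the deposited lists pool the replicates, and leaving out a replicate was not possible for the same reason. Of 61 alternatives over 14 results, 45 kept it within 1.5 times for a count, or inside the interval for a share or median, and 16 moved it; 9 of the 61 were chosen after seeing the data, among them the canonical start, the lists without BLK and the matrix. Peaks with a −log10 q of at least 10 numbered 89 for SMC1 in place of 144, and a window of 100 kb gave 130 CTCF peaks in place of 78 and 213 SMC1 peaks in place of 144, while 20 kb gave 54 and 100. When at least 50% of an SMC1 peak had to be covered, 23.6% overlapped CTCF in place of 44.4%. The loop counts depended on which starts were used. For loops labelled SMC1, 61 became 33 with the start inside the anchor, 40 with starts of protein-coding transcripts, 24 with the canonical start and 104 with the lists exchanged. For loops labelled CTCF, 104 became 46, 64, 52 and 61. The median ratio of observed to expected read pairs labelled SMC1 became 2.77 with the lists exchanged, and that labelled CTCF became 2.44 with the start inside the anchor and 2.49 with starts of protein-coding transcripts. The matrix in place of the letters gave 25.6% of CTCF peaks in place of 5.13%. T cell counterparts with a loop labelled SMC1 numbered 4 in place of 9 with the start inside the anchor. Without BLK the genes held 42 and 76 loops, with medians of 3.13 and 2.62. The causes of these shifts were not tested beyond the stricter rules themselves. Loops with few read pairs carry wide intervals, and a gene without a listed loop may have contacts below the caller's threshold.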

Other observations

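Within the CD79B window, the growth hormone cluster held CTCF peaks at near-identical copies. The windows chr17:63889110-63889169 and chr17:63903914-63903973 (both plus strand) carried the same 20-base site, each with a score of 10.6 bits, in peaks with −log10 q of 154 and 52.5. How reads were divided between such copies was not tested.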
